A study of Rattus norvegicus with 12 samples.

Results

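The genes of the opioid and tachykinin peptides of the striatal projection neurons, with the receptors of these peptides, were examined on arrays of rat dorsal striatum. They were chosen by gene symbol, with earlier results of these data known, as *Pdyn*, *Penk* and *Tac1* for the peptides, *Oprm1*, *Oprd1* and *Oprk1* for the mu, delta and kappa opioid receptors, and *Tacr1* for the substance P receptor. No probe carried the symbol *Penk*. The enkephalin gene was followed through 2 probes that the files name Penk-rs and whose RefSeq accession the rat gene table lists under *Penk*. This gave 7 genes with 9 probes, of 35608 genes named on the array. Of the 7 genes, 6 passed the filter on dim probes and were among the 20398 genes tested, and *Oprm1* did not.

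There were 12 male rats in 4 groups of 3, each measured on 1 single-colour array, and all carried a unilateral lesion of the dopamine neurons made with 9 µg of the toxin 6-OHDA in the substantia nigra. The 6-OHDA group received nothing more. The HFS group had high frequency stimulation of the subthalamic nucleus (STN) on the lesioned side without pause over 5 days (60 µA at 130 Hz, each pulse lasting 80 µs), and these rats were killed when the stimulation stopped. The DOPA group was injected 2 times a day for 19 days with 25 mg/kg of L-DOPA, the dopamine precursor, and 12.5 mg/kg of benserazide, which blocks its conversion outside the brain, the last time 12 h before killing. The DOPA/HFS group had both treatments. The HFS and DOPA/HFS rats were implanted with an electrode in the STN in a later operation. The paper describes no such operation for the other groups on the arrays. Stimulation and implantation therefore cannot be told apart here. No unlesioned rats were on the arrays analysed here, so that every difference is between lesioned animals. The tissue was punched from frozen sections and holds all cell types of the region, so that fewer cells of a type and less RNA per cell cannot be told apart.

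The projection neurons of the striatum form a direct and an indirect output pathway. The neurons of the direct pathway make dynorphin, cut from the *Pdyn* precursor, and substance P, cut from the *Tac1* precursor, and carry the dopamine receptor Drd1a, which raises cyclic AMP. Those of the indirect pathway make enkephalin, cut from the *Penk* precursor, and carry the dopamine receptor Drd2, which lowers cyclic AMP. Dynorphin acts mainly on the kappa receptor and enkephalin on the delta and mu receptors, while substance P acts on the *Tacr1* receptor, which in striatum is found on cholinergic and other interneurons. Striatal *Pdyn* is a classic target of dopamine receptor stimulation after denervation.

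The promoters of *Pdyn* and *Tac1* are shown because both precursors are made in the same neurons, while their signals differed in the L-DOPA groups. Each runs from 250 bases before to 50 bases after the start site in RefSeq (build GRCr8), 5′ to 3′ on the strand of the gene, at chr3:137366454-137366753 on the minus strand for *Pdyn* and at chr4:36645333-36645632 on the plus strand for *Tac1*. Capitals mark exact matches, on either strand, to the cyclic AMP response element TGACGTCA, its variant TGCGTCA and the AP-1 site TGANTCA. They also mark the variant AP-1 sequence TGACAAACA and the letters TATAAA, a common form of the TATA box. Near matches were not marked, and whether a match serves as a working site was not tested. The variant AP-1 sequence was added to the search after the sequence had been seen.
Pdyn: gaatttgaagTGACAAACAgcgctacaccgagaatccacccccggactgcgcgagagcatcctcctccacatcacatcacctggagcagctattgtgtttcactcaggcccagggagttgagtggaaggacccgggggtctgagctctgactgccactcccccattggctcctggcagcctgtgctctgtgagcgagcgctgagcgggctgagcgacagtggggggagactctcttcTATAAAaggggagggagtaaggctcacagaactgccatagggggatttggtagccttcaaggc
Tac1: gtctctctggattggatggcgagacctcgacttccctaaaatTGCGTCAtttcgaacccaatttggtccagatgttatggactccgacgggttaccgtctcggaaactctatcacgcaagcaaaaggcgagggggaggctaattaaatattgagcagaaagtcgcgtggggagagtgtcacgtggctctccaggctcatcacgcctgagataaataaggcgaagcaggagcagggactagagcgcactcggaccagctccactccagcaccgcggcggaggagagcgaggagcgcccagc

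The *Pdyn* window held the variant AP-1 sequence, which begins at position -240 from the start site, and a TATAAA that begins at -13. The *Tac1* window held the TGCGTCA variant, which begins at -208. Over all 33469 promoters of the same length, TGACAAACA was found in 0.37%, TATAAA in 14.2%, TGCGTCA in 1.90%, TGACGTCA in 1.83% and TGANTCA in 7.33%. Of the 3 receptor genes with a promoter in the table, *Oprm1* (2 start sites) and *Oprd1* held none of the motifs and *Tacr1* held a TATAAA that begins at -50.

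Depth and quality were close on most arrays. Between 50.5% and 63.2% of the spots were well above background, and arrays of 1 group correlated at 0.965 to 0.989 over all genes measured on every array. One array stood apart through the scanner software, since DOPA/HFS replicate 3 had 4175 spots marked as outliers against 2 to 25 on the others. On the array labelled DOPA/HFS replicate 1, *Pdyn* read at the level of the rats without L-DOPA. The 5 genes most like *Pdyn* did so too, but they were chosen for following it over these same arrays and are no separate evidence. In *Fos*, a transcription factor gene, this array lay with the other L-DOPA treated arrays, below every array without L-DOPA. *Fos* was the only 1 of 96 listed genes separated in that way. Its place there thus comes with the choice of the gene and is no separate evidence either. Whether the treatment or the label of this rat differed was not tested, and the *Pdyn* results that rest on it are given with and without it. Each replicate number was 1 slide that held 1 array of each group, and each position on the slides held 1 group, so that position and group cannot be told apart. Striatal projection neuron markers were present, of which 12 of 12 were tested and 11 were well above background on all 12 arrays. *Drd1a*, *Drd2* and *Adora2a* were well above background on every array. Their presence does not measure how much neighbouring tissue was included. The summed signal of the 2 cortex markers tested ran from 248 to 727 in 6-OHDA and from 171 to 1114 in HFS. It ran from 322 to 1052 in DOPA and from 411 to 442 in DOPA/HFS.

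*Pdyn*, the dynorphin precursor gene, was the only member whose DOPA arrays were separated from the 6-OHDA arrays. All values are log2 signals after quantile normalization. The probe read 14.53, 14.83 and 14.74 on the 3 arrays of the 6-OHDA group, a mean of 14.70 ± 0.15 (SD, n = 3). In the DOPA group it read 16.09, 16.21 and 15.98, a mean of 16.09 ± 0.11 (SD, n = 3). The 3 DOPA arrays were all above the 3 6-OHDA arrays, with a gap wider than the spread within either group. The difference was 1.40 (SE 0.28, 95% confidence interval 0.78 to 2.01, n = 3 and 3), a fold of 2.63 (1.72 to 4.02). It did not pass the limma test over 20398 genes (adjusted p = 0.878, unadjusted p = 0.000394), and 6 genes had a lower p. The exact two-sided permutation test gave p = 0.1, which is the smallest that 3 arrays against 3 allow. Of all genes, 3.16% were higher in DOPA without overlap.

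HFS alone left *Pdyn* near the untreated level. The HFS arrays read 14.81, 14.72 and 14.36, and they overlapped the 6-OHDA arrays. The difference was -0.07 (SE 0.28, interval -0.68 to 0.54, limma adjusted p = 0.998).

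With both treatments *Pdyn* was split. DOPA/HFS replicate 1 read 14.68, within the range of the 6-OHDA arrays, while replicates 2 and 3 read 15.87 and 15.81, just under the lowest DOPA array. The difference from 6-OHDA was 0.76 (SE 0.28, interval 0.14 to 1.37, limma adjusted p = 1.0, exact permutation p = 0.3), and without replicate 1 it was 1.14. The difference from DOPA was -0.64 (SE 0.28, interval -1.25 to -0.03, adjusted p = 1.0, exact permutation p = 0.1), with all 3 DOPA/HFS arrays below all 3 DOPA arrays, as were 5.66% of all genes. Without replicate 1 that difference was -0.25, and DOPA/HFS replicates 2 and 3 were still below the DOPA arrays. The difference from HFS was 0.82 (SE 0.28, limma adjusted p = 1.0, exact permutation p = 0.3), and 1.21 without replicate 1.

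Over both stimulation states, *Pdyn* was higher by 1.11 (SE 0.20, interval 0.68 to 1.54) in the 6 L-DOPA treated rats than in the 6 others, a fold of 2.16. The limma adjusted p was 0.381 (unadjusted p = 0.000152), so the gene was not called with all 12 arrays, and 5 genes had a lower p. The exact permutation of the L-DOPA labels within each stimulation state gave p = 0.015, against a smallest possible value of 0.005, and within slides as well it gave p = 0.0625. Within the slides the difference was 0.72, 1.27 and 1.35, so that *Pdyn* was higher with L-DOPA on 3 of 3 slides when both stimulation states were averaged. On slide 1 it was 1.56 in DOPA against 6-OHDA but -0.13 in DOPA/HFS against HFS. With the replicate number as a block the adjusted p was 0.476. The main effect of HFS was -0.35 (SE 0.20, adjusted p = 0.911, exact permutation p = 0.075), and the interaction of the treatments was -0.57 (SE 0.39, interval -1.44 to 0.29, adjusted p = 1.0).

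*Pdyn* was called only when 1 array was left out of the fit. When DOPA/HFS replicate 1 was left out, the spread estimated for *Pdyn* was smaller, and *Pdyn* was called in DOPA against 6-OHDA (1.40, SE 0.16, limma adjusted p = 0.0163) and in the main effect of L-DOPA (1.30, SE 0.12, adjusted p = 0.00222). The 5 remaining L-DOPA arrays were then all above the 6 arrays of the 6-OHDA and HFS groups, with 15.81 as the lowest of the former and 14.83 as the highest of the latter. Leaving out any of the other 11 arrays gave no call, with limma adjusted p values of 0.535 to 0.949 for the main effect. The fit of only the DOPA and 6-OHDA arrays, which also lacks DOPA/HFS replicate 1, gave no call for *Pdyn* either. Over that and the other settings, 14 in all, the lowest limma adjusted p in DOPA against 6-OHDA was 0.215. DOPA/HFS replicate 1 stood apart through *Pdyn* itself, so its omission is no independent test.

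**Figure D1:**
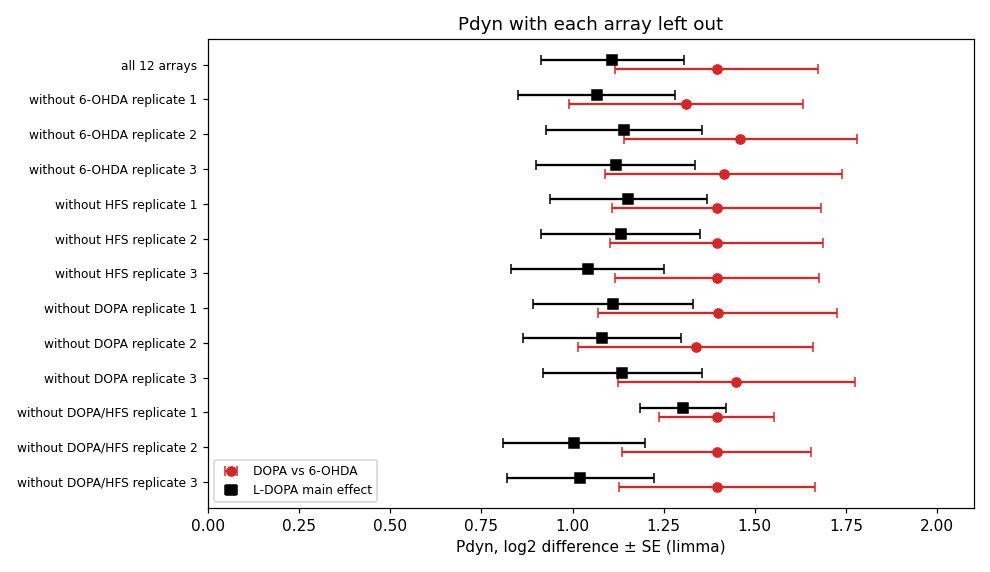
Log2 difference in *Pdyn* with its standard error from the limma fit, for DOPA against 6-OHDA (red circles) and for the main effect of L-DOPA (black squares), with all 12 arrays and with each array left out in turn. The differences are at least 1.0 throughout, and the standard errors are smallest (0.16 and 0.12) without DOPA/HFS replicate 1.

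*Tac1*, the substance P precursor gene of the same neurons, was not separated by L-DOPA. Its probe is printed in 10 spots on each array, and the values are means over them. The 6-OHDA arrays read 14.66, 14.62 and 15.07. The DOPA arrays read 14.99, 14.91 and 14.92, within the range of the 6-OHDA arrays. The difference was 0.15 (SE 0.17, interval -0.21 to 0.52, limma adjusted p = 1.0), and the main effect of L-DOPA was -0.04 (SE 0.12, interval -0.30 to 0.21).

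In the HFS group *Tac1* read 15.23, 15.21 and 15.01. Only HFS replicates 1 and 2 were above every 6-OHDA array, so the groups overlapped. The difference was 0.37 (SE 0.17, interval 0.00 to 0.73), a fold of 1.29, with a limma adjusted p of 0.998 (unadjusted p = 0.0492) and an exact permutation p of 0.2. Each of the 10 spots gave a difference above 0, from 0.31 to 0.43, but these share the same RNA and are not replicates. The slides gave 0.57, 0.59 and -0.06. In the DOPA/HFS group *Tac1* read 15.06, 15.02 and 14.65, 0.13 above 6-OHDA (SE 0.17) and 0.24 below HFS (difference -0.24, SE 0.17), neither of which passed the test.

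*Penk*, the enkephalin precursor gene of the indirect pathway, was close in all groups. Its bright probe read 16.76, 16.14 and 16.80 in the 6-OHDA group and 16.60, 16.42 and 16.69 in the HFS group. It read 16.85, 16.46 and 16.66 in the DOPA group and 16.41, 16.48 and 16.86 in the DOPA/HFS group. The widest group was the untreated one, and the groups overlapped in every comparison. The differences from 6-OHDA were 0.09 for DOPA, 0.00 for HFS and 0.02 for DOPA/HFS, each with an SE of 0.21, and the intervals reached from -0.36 to 0.55, -0.45 to 0.45 and -0.43 to 0.47. The bright probe was saturated on 6-OHDA replicate 3 and DOPA/HFS replicate 3, where it gives only a lower bound. The second probe was never saturated and well above background on all arrays, and its differences from 6-OHDA were 0.09, 0.13 and -0.05 (SE 0.23 each). It was far dimmer, with 6.18 to 6.95 against 16.14 to 16.86 for the bright probe, so it is a limited check on the latter.

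Since 1 array gives the signals of both genes, *Pdyn* was also set relative to its companions within each array, a measure added after the values had been seen and given with no test. Relative to *Tac1*, and taken from the 6-OHDA mean, *Pdyn* lay between -0.25 and 0.29 on the 6-OHDA arrays and between 1.15 and 1.39 on the DOPA arrays. On the HFS arrays it lay between -0.56 and -0.34, below every 6-OHDA array, a difference of -0.43. The DOPA/HFS arrays gave -0.29, 0.94 and 1.25, and the lowest was again replicate 1. Relative to *Penk* the DOPA arrays lay at 1.10 to 1.61 and the 6-OHDA arrays at -0.36 to 0.55, and the HFS arrays overlapped the latter with -0.46 to 0.17. Since the *Penk* probe was saturated on 6-OHDA replicate 3 and DOPA/HFS replicate 3, the ratios to *Penk* there are upper bounds before the 6-OHDA mean is subtracted. That mean includes 1 such bound, so the value given for DOPA/HFS replicate 3 is bounded on neither side. The ratio is relative and does not itself show which gene moved. Whether its shifts exceed those of other gene pairs was not tested. Taken alone, the difference in HFS against 6-OHDA was 0.37 for *Tac1*, -0.07 for *Pdyn* and 0.00 for *Penk*. In DOPA against 6-OHDA it was 0.15 for *Tac1*, 1.40 for *Pdyn* and 0.09 for *Penk*. None of these differences was called in the limma fit over all arrays.

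**Figure D2:**
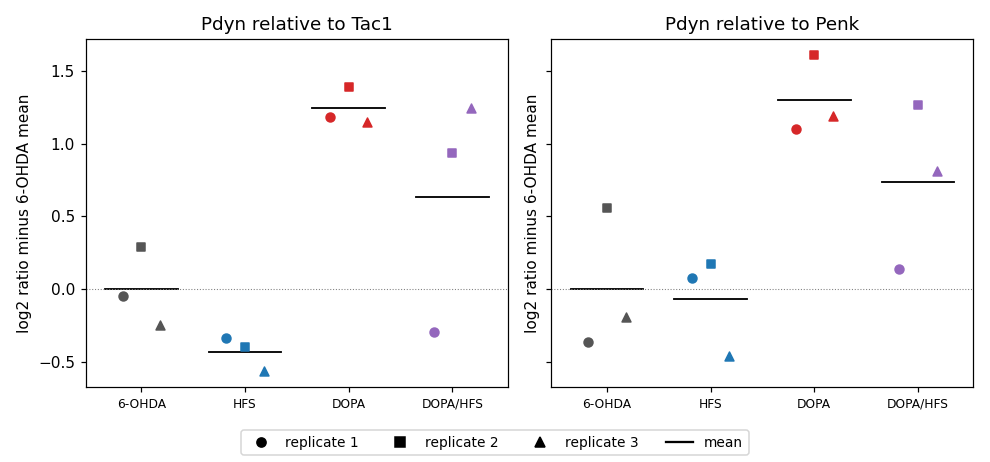
Log2 ratio of *Pdyn* to *Tac1* (left) and to *Penk* (right) within each array, minus the mean of the 6-OHDA arrays, with the group means as lines. The 3 DOPA arrays sit between 1.10 and 1.61 in both panels, and DOPA/HFS replicate 1 sits at -0.29 and 0.13. *Penk* was saturated on 6-OHDA replicate 3 and DOPA/HFS replicate 3, so the ratios to *Penk* there are upper bounds before the mean is subtracted. The subtracted mean includes 1 such bound.

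Of the receptors, *Oprk1*, the kappa receptor gene that dynorphin acts on, did not differ between groups beyond the spread of the arrays. It read 8.73, 8.16 and 8.19 in the 6-OHDA group and 8.54, 8.22 and 8.54 in the DOPA group. It read 8.25, 7.93 and 8.22 in the HFS group and 8.23, 8.34 and 8.34 in the DOPA/HFS group. The highest value was 6-OHDA replicate 1, and the groups overlapped in every comparison. The differences from 6-OHDA were 0.07 for DOPA (interval -0.33 to 0.47), -0.23 for HFS (-0.63 to 0.17) and -0.06 for DOPA/HFS (-0.46 to 0.34).

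*Oprd1*, the delta receptor gene, read 7.42, 6.95 and 7.36 in the 6-OHDA group and 7.50, 7.47 and 7.24 in the HFS group. It read 7.40, 7.67 and 7.28 in the DOPA group. In the DOPA/HFS group it read 7.27 and 7.26, since its spot on replicate 3 was marked as an outlier and left out. The differences from 6-OHDA were 0.21 (SE 0.17), 0.16 (SE 0.17) and 0.02 (SE 0.19) for DOPA, HFS and DOPA/HFS, the last from 2 arrays against 3. Every treated group overlapped the 6-OHDA group, and the 2 DOPA/HFS arrays lay just below the lowest DOPA array (difference -0.19, SE 0.19, limma adjusted p = 1.0). The outlier spot had an intensity of 7735 on the linear scale, and with it kept the difference between DOPA/HFS and 6-OHDA was 1.74 (limma adjusted p = 0.851).

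*Tacr1*, the substance P receptor gene, was lower on average in all treated groups, within the spread of the arrays. Its 10 spots averaged 8.15, 8.31 and 8.51 in the 6-OHDA group and 7.97, 8.23 and 8.02 in the HFS group. They averaged 8.18, 7.96 and 7.96 in the DOPA group and 8.41, 7.98 and 7.88 in the DOPA/HFS group. At least 1 array of every treated group lay above the lowest 6-OHDA array. The differences were -0.25 for HFS, -0.29 for DOPA and -0.23 for DOPA/HFS, each with an SE of 0.17 and an exact permutation p of 0.2, 0.2 and 0.3. Within the slides the differences were -0.18, -0.08 and -0.48 for HFS, 0.03, -0.35 and -0.54 for DOPA and 0.26, -0.33 and -0.63 for DOPA/HFS, so that *Tacr1* was lower on 3 of 3 slides in HFS and on 2 of 3 in the others. None of the 10 spots gave a difference above 0 in any of the 3 comparisons, which share the 6-OHDA arrays. Between arrays of a group the SD was 0.19, against a median SD between the spots of an array of 0.13, and the standard error of a mean over 10 spots was at most 0.06.

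*Oprm1*, the mu receptor gene, was not well above background. The probe printed in 10 spots was well above background on 0 of 12 arrays and the other probe on 1, DOPA replicate 1. A further 2 probes that the files describe as mu receptor transcripts, without the gene symbol, were well above background on 0 arrays. *Oprm1* was therefore left out of the tested genes. Fitted without the filter on dim probes, its 10-spot probe gave -0.18 in DOPA, -0.05 in HFS and 0.41 in DOPA/HFS against 6-OHDA (SE 0.25 each), and 0.59 in DOPA/HFS against DOPA (limma unadjusted p = 0.0435, adjusted p = 0.916). These values come from signals that were not well above background.

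Over the members, 0 of 6 were called in each of the 8 comparisons (limma, a Benjamini-Hochberg adjusted p below 0.1 with at least the fold limits of 1.2 or 0.8 passed). Among all genes, 0.0049% were called in DOPA against 6-OHDA and in the main effect of L-DOPA, a single gene each time, and 0% in the others. At an unadjusted p under 0.05, *Pdyn* alone passed in DOPA (2.58% of all genes) and in the main effect of L-DOPA (2.74%), and *Tac1* alone in HFS (2.34%). *Pdyn* alone passed in DOPA/HFS against 6-OHDA (2.75%), against DOPA (3.78%) and against HFS (2.44%), and none passed in the main effect of HFS (4.36%) or the interaction (1.98%). Counted over genes with a value on every array compared, groups that do not overlap were found for 1 member higher in DOPA (3.16% of all genes higher and 3.11% lower) and 1 lower in DOPA/HFS than in DOPA (3.76% and 5.66%), which was *Pdyn* both times. They were found for 0 members in HFS (2.8% and 2.34%), in DOPA/HFS against 6-OHDA (1.74% and 2.44%) and against HFS (2.24% and 4.13%), and in the main effects of L-DOPA (0.0872% and 0.049%) and HFS (0.049% and 0.114%). The median difference of the 6 members in DOPA was 0.12, against -0.01 over all genes. The exact permutation tests numbered 42 over the 6 genes and 7 comparisons, with 10 more within slides, and others on the *Pdyn* ratios and without DOPA/HFS replicate 1 are not quoted.

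**Figure D3:**
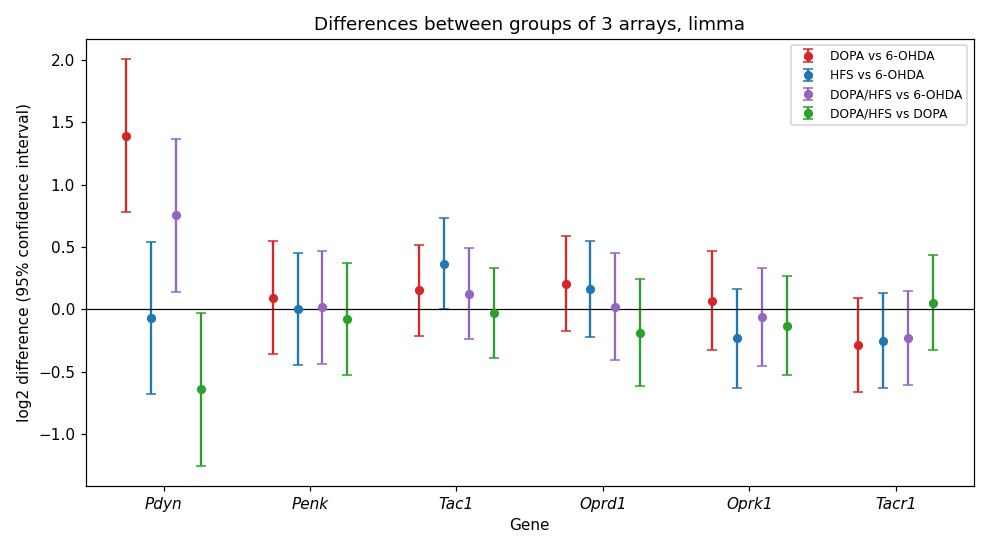
Log2 differences between groups with 95% confidence intervals from the limma fit, for the 6 tested genes and 4 comparisons. The interval of *Pdyn* in DOPA against 6-OHDA runs from 0.78 to 2.01, and outside *Pdyn* only that of *Tac1* in HFS against 6-OHDA lies above 0, by less than 0.01.

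The genes with the signal most like *Pdyn* over the 12 arrays were *Gss* (glutathione synthetase, Pearson r = 0.977), *Cryba2* (a crystallin, 0.972), *Trh* (thyrotropin releasing hormone, 0.966), *Efemp2* (an extracellular matrix protein, 0.952) and *Crhr1* (a corticotropin releasing hormone receptor, 0.948), among 18349 genes. These are descriptions over arrays that share the same groups. The genes were chosen for following *Pdyn* on these arrays, so their low signal on DOPA/HFS replicate 1 comes with the choice. *Trh* read 8.00, 8.07 and 8.04 in the 6-OHDA group and 7.59, 7.78 and 7.81 in the HFS group. It read 10.77, 10.76 and 10.61 in the DOPA group, and 7.82, 10.50 and 11.03 in the DOPA/HFS group. As for *Pdyn*, DOPA/HFS replicate 1 was at the level of the arrays without L-DOPA. *Gss* showed the same order in a narrower range, with 10.10 to 10.19 in the DOPA group, 9.37 to 9.58 in the 6-OHDA group and 9.47, 9.93 and 9.92 in the DOPA/HFS group. *Cryba2* was well above background on 5 arrays, the 3 of the DOPA group and DOPA/HFS replicates 2 and 3. The genes most like *Tac1* were *Ccdc117* (0.931), *Stk38* (0.913) and an unnamed expressed sequence (0.908), and those most like *Penk* (0.880 to 0.913) were an expressed sequence and 2 predicted genes that were well above background on 6 to 10 arrays.

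**Figure D4:**
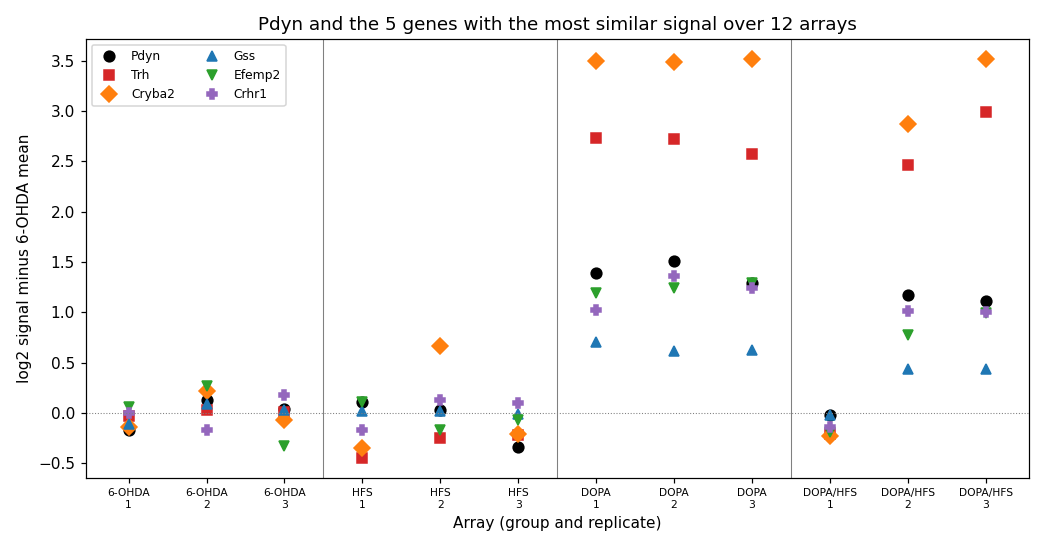
Log2 signal of *Pdyn* and of the 5 genes with the highest Pearson correlation to it, each minus its mean on the 6-OHDA arrays, on each of the 12 arrays. All 6 genes lie above 0 on the 3 DOPA arrays and on DOPA/HFS replicates 2 and 3, and close to 0 on DOPA/HFS replicate 1, where *Trh* reads 7.82.

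Around the members, 17 lists of 122 genes were followed, of which 108 were tested, and 0 were called in any comparison with all 12 arrays. In DOPA against 6-OHDA, 6 of 108 listed genes were higher without overlap (5.56%, against 3.16% of all genes) and 4 were lower (3.7%, against 3.11%). In HFS the counts were 6 and 3 of 107 (against 2.8% and 2.34% of all genes), with 3 of the 6 from the choroid plexus list, and in DOPA/HFS they were 2 and 2 of 97 (against 1.74% and 2.44%). The listed genes named as not overlapping are to be read against these shares. Of 9 other striatal peptides tested, *Trh* was higher in DOPA by 2.67 (SE 0.61, limma adjusted p = 0.967) and *Nts*, the neurotensin gene, by 0.66 (SE 0.25), both without overlap with 6-OHDA. The median of this list in DOPA was 0.00. *Trh* was called in DOPA against 6-OHDA when only those 6 arrays were fitted (limma adjusted p = 0.00376), and also without DOPA/HFS replicate 1 (limma adjusted p = 0.000221). Among 13 genes of peptide processing and degradation, *Scg2*, a granin of dense core vesicles, was higher without overlap in DOPA (0.97, SE 0.22, limma adjusted p = 0.967) and in DOPA/HFS (0.61, SE 0.22). The median of the 13 genes in DOPA was 0.01.

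Of 9 transcription factors that act at the peptide genes, *Fos* was lower in DOPA by a difference of -1.26 (SE 0.42) and in DOPA/HFS by -1.58 (SE 0.42), without overlap with 6-OHDA. Its 6-OHDA arrays read 8.06, 7.92 and 9.85, and the L-DOPA treated arrays lay between 6.85 and 7.62. The L-DOPA main effect on *Fos* was -1.46 (SE 0.30, limma adjusted p = 0.460), with all 6 treated arrays below all 6 others, as for 0.049% of all genes. *Junb*, which pairs with *Fos*, was lower without overlap in DOPA (-0.63, SE 0.30). Among 13 genes of receptor signalling, *Rgs4*, which shortens the signal of G proteins, was higher without overlap in DOPA (0.37, SE 0.14).

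The other ligands and receptors of both families gave no called gene. Of 7 tested, 2 lay above 0 in DOPA and 1 in HFS, with medians of -0.04 and -0.22, and none was separated from 6-OHDA. *Tac2*, the neurokinin B precursor gene, read 14.12, 14.23 and 13.29 in the 6-OHDA group and 13.35, 13.11 and 13.23 in the HFS group. It read 13.94, 14.44 and 14.24 in the DOPA group and 13.19, 14.58 and 14.37 in the DOPA/HFS group, with DOPA/HFS replicate 1 again the lowest of its group. The L-DOPA main effect on *Tac2* was 0.57 (SE 0.25, limma adjusted p = 1.0).

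Of 6 direct pathway markers tested, 4 lay above 0 in DOPA, with a median of 0.04, and *Drd1a* differed by 0.08 (SE 0.21). Their summed signal over the 4 genes with a value on every array ran from 15661 to 22467 in the DOPA group and from 17635 to 22166 in the 6-OHDA group. Of the 12 markers of all projection neurons, 8 lay above 0 in DOPA, from -0.49 to 0.50 with a median of 0.04, and none was separated from 6-OHDA. In DOPA/HFS against DOPA, *Adcy5* (-0.24, SE 0.17), the striatal adenylyl cyclase gene, and *Bcl11b* (-0.61, SE 0.26), a transcription factor gene, were lower without overlap. Of 97 listed genes 6 were lower without overlap there (6.19%), close to the 5.66% of all genes, and not all of them are named. Of the 3 indirect pathway markers tested, *Adora2a*, the adenosine receptor gene, was lower without overlap in DOPA (-0.23, SE 0.14). *Ebf1*, a transcription factor gene of the direct pathway, was lower without overlap in all treated groups, with differences of -0.28 in DOPA, -0.61 in HFS and -0.62 in DOPA/HFS (SE 0.18 each), and was not called.

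Markers of other cell types were set beside the results. Of the 5 endothelial genes tested, 5 were above 0 in DOPA (median 0.22), with *Cldn5* higher without overlap (0.27, SE 0.16), and their summed signal over 4 genes was 8017 to 9588 there, against 7033 to 7249 in 6-OHDA and 6642 to 7434 in DOPA/HFS. Of the astrocyte genes, *Slc1a2*, a glutamate transporter gene, was higher without overlap in DOPA (0.27, SE 0.14). Astrocyte, microglia and oligodendrocyte sums overlapped between the DOPA and 6-OHDA groups. Of the 4 choroid plexus genes tested, 4 were above 0 in HFS (median 4.29), and 3 were higher without overlap. Their summed signal, over 3 genes, was 4020 to 86758 in HFS, 134 to 157 in 6-OHDA, 67.7 to 15855 in DOPA and 88.6 to 727 in DOPA/HFS. These genes were thus higher in HFS against 6-OHDA, the comparison of the *Tac1* difference. In DOPA/HFS against DOPA their median was -0.63. HFS replicates 1, 2 and 3 had sums of 86758, 4020 and 43276, while *Tac1* read 15.23, 15.21 and 15.01 there. The part of endothelial and choroid plexus RNA in these results was not tested.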

How the data were processed

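The striatal RNA of 12 rats was hybridized to 12 rat 4x44K arrays with 45018 spots, 1 array per rat. The authors scanned the arrays and deposited, per the file headers, spot intensities from Agilent Feature Extraction 9.1, with the local background subtracted and a spatial trend removed. The deposited table of log2 values, made by the authors with quantile normalization of these arrays, served as an alternative. Here the log2 processed intensity was taken for every spot, outlier spots were left out, the non-control spots were quantile normalized, and spots of a probe were averaged. Probes entered the fit when the share of arrays with a signal well above background reached 0.4, and the brightest probe stood for its gene. limma 3.58.1 in R 4.3.3 was fitted on 20398 genes over all 12 arrays, with Benjamini-Hochberg adjustment. A gene was called at an adjusted p under 0.1 with a fold above 1.2 or below 0.8. The study's own test, SAM, was not run. The fit was tested on simulated data.

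Members and lists were chosen with earlier results of these data known. Listed genes could be named where they were called, did not overlap in a comparison, or served to check the tissue. All that did not overlap in DOPA against 6-OHDA are named, and those of other comparisons only in part. *Tac2* and *Chrm4* were named after their values had been seen. The genes most like *Pdyn* (5), *Penk* (3) and *Tac1* (3) were those with the highest correlation. The number of arrays limits the precision, and p-values measure the spread between rats. Alternatives changed the scaling, the background correction, the filter, the probe choice, outlier and saturated spots, the block, the arrays fitted and the thresholds. Promoters came from RefSeq for 5 genes. Values were levels of single probes. They were not compared between genes, apart from the ratios of *Pdyn* to *Tac1* and *Penk* and the summed signals of listed genes.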

Additional observations from a re-analysis of the deposited data

How the results depend on the processing

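With 3 rats a group, the calls were limited by the spread between arrays. Of 1230 differences recomputed for the members, 1149 kept direction and side of the threshold, 2 became calls and 79 changed sign, none of them called. *Pdyn* kept its sign in DOPA against 6-OHDA (1.31 to 1.40, limma adjusted p 0.215 to 1.0 over 14 settings) and in the main effect of L-DOPA (1.07 to 1.14, adjusted p 0.181 to 0.767 over 13). Leaving out single arrays gave 1.31 to 1.46 and 1.0 to 1.30, and 0 to 1 members called in each, with the call coming without DOPA/HFS replicate 1. In these comparisons 13 and 28 genes were called over the whole table without that array. Of the listed genes 1, *Trh*, was called without that array, and 1, again *Trh*, with only the arrays compared. The replicate number, which is the slide, correlated deviations from the group means at -0.29 to 0.48 (mean 0.12, 18 pairs) against -0.45 to 0.54 for other pairs (mean -0.06, 36 pairs), and 5 of 12 arrays were nearest to 1 of their own number. With that replicate block *Pdyn* kept 1.40 in DOPA (adjusted p = 1.0), 0 members were called, and *Oprd1* turned to -0.013 in DOPA/HFS against 6-OHDA.

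Scaling to the 75th percentile moved the median of all genes by -0.17, -0.16 and -0.13 in DOPA/HFS against 6-OHDA, DOPA and HFS and by -0.12 in the interaction, and the deposited log2 table by -0.11, -0.11, -0.095 and -0.092. The percentile scaling turned *Penk* to -0.12 in HFS and -0.23 in DOPA/HFS against 6-OHDA and to -0.11 against HFS, *Tac1* to -0.086 in DOPA/HFS against 6-OHDA, *Tacr1* to -0.094 against DOPA and -0.15 against HFS, and *Oprk1* to -0.0074 against HFS and -0.053 in the interaction. The deposited table turned *Penk* to -0.058 against 6-OHDA and -0.070 against HFS, *Tacr1* to -0.14 against DOPA and -0.16 against HFS, and *Oprk1* to -0.017 against HFS and -0.081 in the interaction, all for DOPA/HFS. For the same group, normexp correction turned *Penk* to -0.087 against 6-OHDA and -0.15 against HFS, and *Tac1* to 0.0018 against DOPA. The mean of both probes turned *Penk* to -0.018 and -0.087, and the unsaturated probe to -0.053 and -0.19 and to -0.047 in the main effect of L-DOPA. With outlier spots kept, *Oprd1* turned to 1.53 against DOPA, 1.57 against HFS, 0.85 in the main effect of HFS and 1.37 in the interaction, through 1 spot. *Tacr1* turned to -0.16 and -0.19, and *Oprk1* to -0.034 against HFS and -0.10 in the interaction. Division by *Hprt1* turned *Oprk1* to 0.027 against 6-OHDA, *Penk* to 0.0097 and *Tac1* to 0.059 against DOPA, and *Penk* to 0.017 and *Oprd1* to 0.030 in the main effect of HFS. The cause was not tested.

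Leaving out 1 array at a time changed the sign of small differences. In DOPA against 6-OHDA, *Penk* ran from -0.12 to 0.21 and *Oprk1* from -0.031 to 0.26. In HFS against 6-OHDA, *Pdyn* ran from -0.16 to 0.066, *Penk* from -0.21 to 0.12 and *Pdyn* relative to *Penk* from -0.25 to 0.21 (0.12 without HFS replicate 3). In DOPA/HFS against 6-OHDA, *Penk* ran from -0.19 to 0.13, *Oprd1* from -0.12 to 0.11 and *Oprk1* from -0.16 to 0.12. Against DOPA, *Penk* ran from -0.22 to 0.020, *Tac1* from -0.10 to 0.10 and *Tacr1* from -0.11 to 0.16. Against HFS, *Penk* ran from -0.12 to 0.10 and *Tacr1* from -0.14 to 0.12. In the main effect of L-DOPA, *Penk* ran from -0.052 to 0.11, *Tac1* from -0.084 to 0.027 and *Oprd1* from -0.040 to 0.078. In that of HFS, *Penk* ran from -0.14 to 0.021 and *Oprd1* from -0.085 to 0.043, and in the interaction *Penk* from -0.22 to 0.13 and *Oprk1* from -0.086 to 0.20. *Pdyn* relative to *Tac1* in DOPA/HFS was 1.09, -0.15 and 1.53 against 6-OHDA, DOPA and HFS without DOPA/HFS replicate 1.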
